A study of Gallus gallus with 9 samples.

Results

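Chicken primordial germ cells (PGCs), the embryonic precursors of eggs and sperm, were cultured without basic fibroblast growth factor (bFGF) for 24 h (-bFGF) and then given bFGF back for another 24 h (+bFGF, 48 h). The 3 -bFGF and 3 +bFGF arrays described here are 6 of the 9 Affymetrix Chicken Genome arrays in the series, chosen by their treatment labels, and the remaining 3 arrays hold PGCs before withdrawal (RAW, 0 h), which serve here as a reference level. All PGCs came from whole blood of Korean Oge (KO) embryos at embryonic day 2.5, of mixed sex by the methods, and grew without feeder cells in medium with serum and human bFGF at 10 ng/ml. The +bFGF cells had also been in culture for 24 h longer than the -bFGF cells, so the return of bFGF and the extra day in culture cannot be told apart. The sources give 3 repeats of each treatment but do not say whether they were separate cultures, so p-values measure the spread between these arrays, which may be technical.

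In chicken, PGCs travel in the bloodstream to the gonads, and FGF is a growth signal for them in culture. FGF receptors are tyrosine kinases that, with heparan sulfate as a cofactor, pass the signal through RAS, RAF, MEK and ERK to transcription factors of the ETS family. ERK signalling also turns on its own inhibitors, the Sprouty proteins, the dual-specificity phosphatases and the membrane protein IL17RD (SEF), which damp the pathway at different steps. The question addressed was which transcripts moved when the factor was returned, among genes that the study tabulated and others. Its tables already list IL17RD, SPRY2, DUSP6, DUSP4, SGK1, PLPP1 (as PPAP2A), PDGFA, GJA1 and TMEFF2. They also list ITGB5, SMAD2, CCND1, CA2, COL1A2, NEFM and further genes named below.

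The values are linear MAS5 intensities, and the array medians lay between 71.6 and 82.6 in all 9 arrays. Probe sets not designed on chicken transcripts, such as viral and reporter sequences, had 95th percentiles of 32.0 to 40.5, which is taken as the background level. The cells carried germ cell transcripts, among them DDX4, DAZL and KIT, which the study also used to characterise them. The DAZL intensity was 32806 ± 4038 in -bFGF and 35273 ± 1489.7 in +bFGF (mean ± SD, n = 3), and that of DDX4, the chicken vasa homologue, was 19879 ± 1219 and 21056.5 ± 1261. Of 7 PGC markers, 0 passed the test (limma, adjusted p of 0.097 or higher in each), and the summed intensity of the 7 was 67111 to 79284 in -bFGF arrays and 74206 to 80632 in +bFGF arrays. NANOG and POUV, which the study also used, are not among the 7. By quantitative RT-PCR the study reported that NANOG, POUV, DAZL and the vasa homologue were lower after bFGF withdrawal. The test here compares +bFGF with -bFGF, so it does not address that fall. In these arrays every -bFGF intensity of DAZL and DDX4 lay below every RAW intensity, and every one of KIT above. The difference between -bFGF and RAW was not tested. ITGA6, which the study used as a surface protein marker, was called fallen (log2 change -0.222 to -0.162 over the alternatives). Its call was lost in 4 of the 9 fits that left out 1 array. Markers of other cells were in part dim. Mean intensities over the 6 arrays were below the background for 7 of 16 fibroblast and mesenchyme markers, 7 of 12 endothelial, 7 of 13 leukocyte, 5 of 9 erythroid and 2 of 5 thrombocyte markers, among them the globins HBA1 and HBAD, the endothelial cadherin CDH5 and the fibroblast genes TWIST1, DCN, LUM, POSTN and ACTA2. Others were well above it, and the collagen COL3A1 averaged 4418 ± 153 in -bFGF and 3999.8 ± 294 in +bFGF, fibronectin FN1 720.1 ± 15.1 and 586 ± 77.5, the transferrin receptor TFRC 1753 ± 94.0 and 1779 ± 136, and the mesenchymal factor PRRX1 264 ± 18.1 and 315 ± 8.25, with no call. The 9 erythroid markers include ALAS1, matched in place of ALAS2, at 519 ± 22.2 in -bFGF and 527 ± 35.5 in +bFGF. Of the tested markers of other cells 3 were called. COL1A2 rose by 2.82 on the log2 scale (adjusted p = 5.39e-10). The endothelial marker EGFL7 rose by 0.77 (adjusted p = 0.034), and the leukocyte marker CD44, an adhesion receptor, fell by 0.74 (adjusted p = 0.035). Either call was lost without -bFGF replicate 1, -bFGF replicate 3, +bFGF replicate 1 or +bFGF replicate 2, that of EGFL7 also without RAW replicate 1 (adjusted p of up to 0.118) and that of CD44 without +bFGF replicate 3 (up to 0.152). Summed intensities were 507 to 651 in -bFGF and 640 to 842 in +bFGF for the endothelial markers and 671 to 843 and 672 to 897 for the leukocyte markers. The summed fibroblast markers were 6403 to 6633 in -bFGF and 7076 to 8347 in +bFGF, and without COL1A2 they were 6151 to 6355 and 5397 to 6229. The log2 ratio of the 3' to the 5' actin control probe set was 0.70 to 0.78 in -bFGF and 0.33 to 0.59 in +bFGF, without overlap, whereas the ratios for EF1A and GAPDH overlapped between the groups. The part of this RNA quality difference in the results below was not tested. In these bulk samples fewer cells of a type and less RNA per cell cannot be told apart.

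At an adjusted p under 0.05, calls on replacement of bFGF were split about evenly between the directions. The study, by its own criteria on dChip values, reported more transcripts up than down on replacement. Of 19220 probe sets at or above the median level, 647 were upregulated (3.37%) and 657 downregulated (3.42%) in +bFGF against -bFGF (limma, Benjamini-Hochberg adjusted p under 0.05 over all tested probe sets). With each array centred on its 75th percentile the split was 806 to 476. It was 178 to 104 in the test against a 1.2-fold change and 461 to 519 by the interval criteria of the methods. Without -bFGF replicate 2 the counts were 433 and 332, without -bFGF replicate 3 they were 477 and 380, and without +bFGF replicate 3 they were 491 and 435. With 1 probe set per gene, the brightest, 367 of 9125 genes rose (4.02%) and 384 fell (4.21%), and 207 of the risen and 167 of the fallen genes kept the call in each of the 9 fits that left out 1 array. The median log2 change over all 9125 genes was -0.02. Of the called genes 374 had several probe sets, and for 0 of them was another probe set called in the opposite direction. The only probe set read may match further transcripts for CHL1, GJA1, RHOB, CD82, ACOX2, CLDN1, BARD1, NKD1, PSAT1, ATG5 and B3GNT2. More than a 2-fold rise was seen for 56 of the called genes and more than a 2-fold fall for 34. The same fit set +bFGF against RAW, where 148 genes (1.62%) were higher and 169 (1.85%) lower in +bFGF. That comparison uses the same +bFGF arrays, and its values are given below beside single genes only. Each log2 change is given as +bFGF minus -bFGF with its standard error (SE) from the fit, and intensities are listed for replicates 1, 2 and 3.

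**Figure D1:**
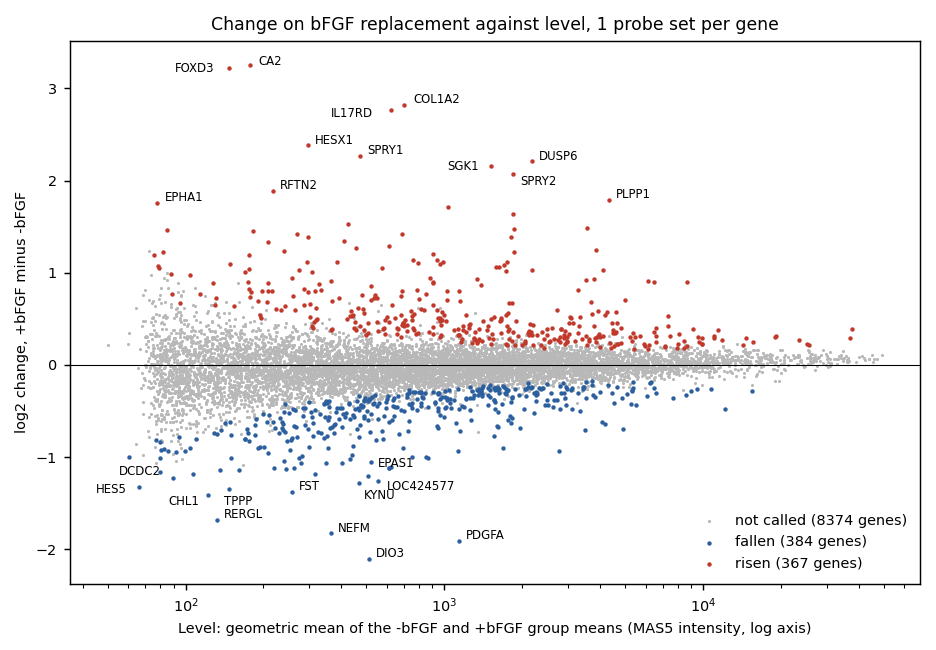
Each point is 1 gene, its log2 change from -bFGF to +bFGF on the vertical axis and its MAS5 intensity, as the geometric mean of both group means, on a horizontal log axis; red genes rose, blue genes fell and grey genes did not pass the test. The 12 largest rises reach 3.25 (CA2) and the 12 largest falls reach -2.10 (DIO3), and calls occur over the whole range of intensities.

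The 12 largest rises held 4 inhibitors of ERK signalling, SPRY1, SPRY2, DUSP6 and IL17RD. They also held the carbonic anhydrase CA2, the transcription factors FOXD3 and HESX1, the collagen chain COL1A2, the kinase SGK1, the lipid phosphatase PLPP1, the ephrin receptor EPHA1 and the lipid raft protein RFTN2. RFTN2 had intensities of 125, 110.3 and 105 in -bFGF and 429, 405.5 and 419.7 in +bFGF, a log2 change of 1.89 ± 0.13 (adjusted p = 7.18e-07). Every +bFGF array of RFTN2 lay above every -bFGF array, which was a condition for choosing the 24 genes. The 12 largest falls held DIO3, an enzyme that inactivates thyroid hormone, the growth factor PDGFA, the neurofilament NEFM, the neural adhesion molecule CHL1, the activin-binding protein FST, the Notch target HES5 and the hypoxia-inducible factor EPAS1. The remaining 5 were the RAS-related RERGL (log2 change -1.68), TPPP, which promotes tubulin assembly (-1.35), KYNU, the kynureninase of tryptophan breakdown (-1.28), DCDC2, a doublecortin-domain protein (-1.23), and LOC424577 (-1.26), which has no further name in the annotation. KYNU read 716, 765 and 698 without bFGF and 268, 302 and 328 after its return, and its RAW arrays read 342, 344 and 334. For KYNU every -bFGF array stood above the arrays of both other groups.

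**Figure D2:**
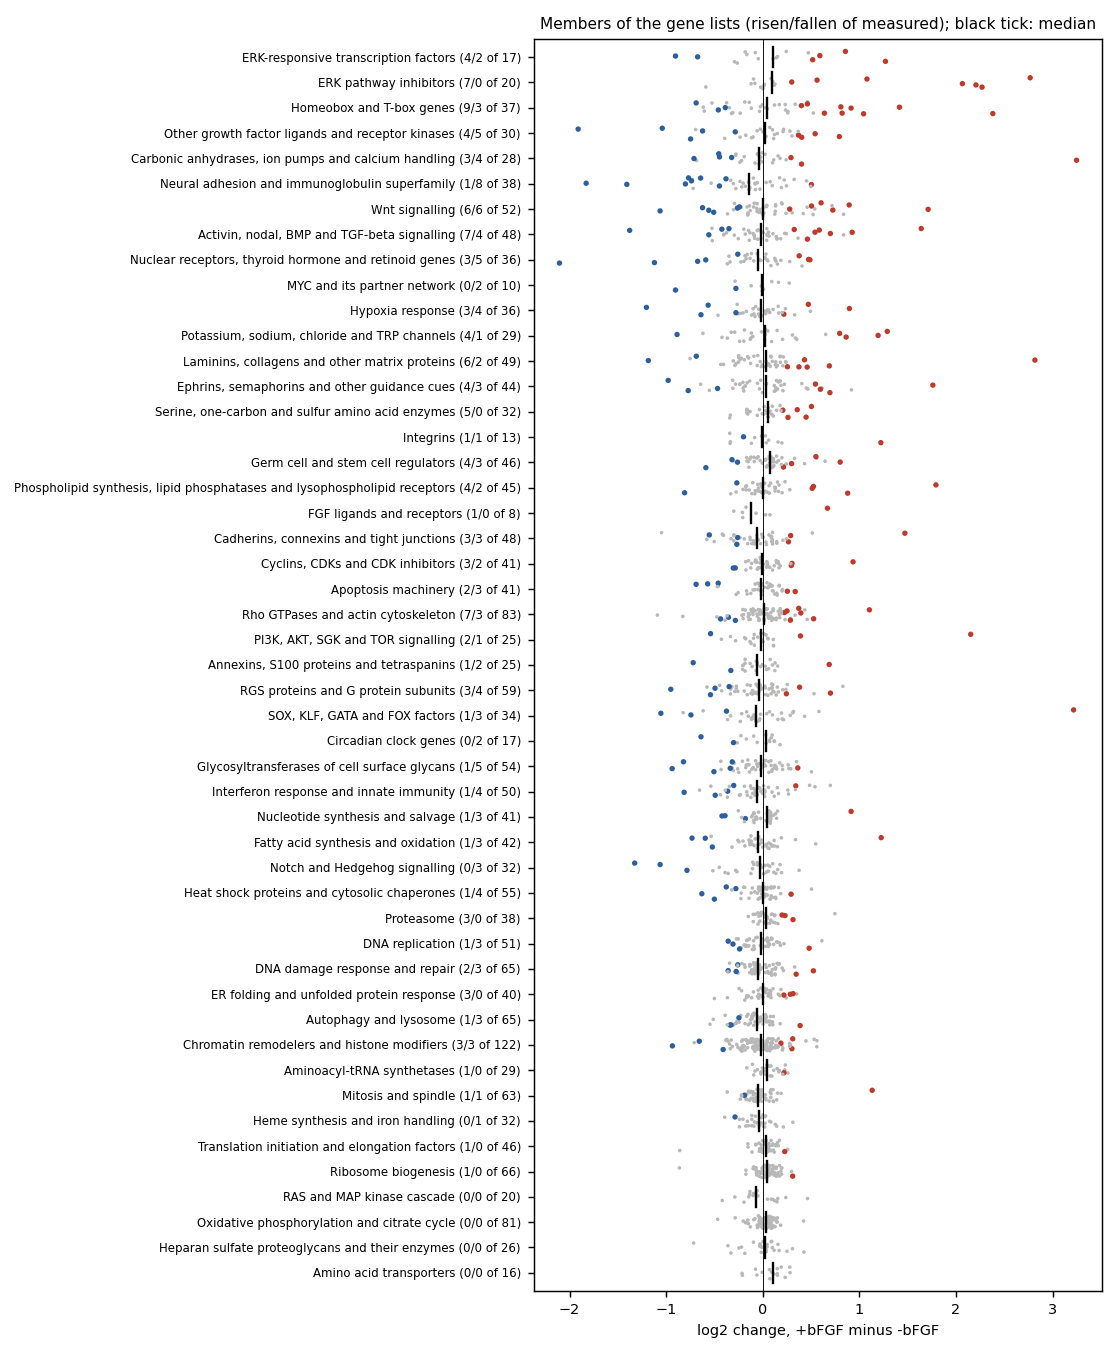
Log2 changes from -bFGF to +bFGF of the measured members of 49 gene lists, 1 point per gene, red for risen, blue for fallen and grey for not called, with the median of each list as a black tick; the numbers after each name are risen/fallen of measured, and lists are ordered by the share called. ERK-responsive transcription factors (6 of 17) and ERK pathway inhibitors (7 of 20) stand at the top, and 4 lists with no called member at the bottom.

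Over the 49 lists the median log2 change ran from -0.14 in the neural adhesion list to 0.11 in ERK-responsive transcription factors, against -0.02 over all genes. Of all genes 4.02% rose and 4.21% fell. The lists were chosen with earlier results of these data known, so a higher share in a list is no independent support.

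The inhibitors of the ERK pathway rose more often than the 4.02% of all genes. The study had already tabulated IL17RD, SPRY1, SPRY2, DUSP6 and DUSP4 from these arrays, so this excess is no independent support. Of 20 measured members 7 rose and 0 fell, 6 of the rises keeping their call whichever array was left out, with a list median of 0.10. IL17RD, which holds active ERK in the cytoplasm, had intensities of 237, 274 and 204 in the -bFGF arrays and 1642, 1692 and 1509 in the +bFGF arrays. Its log2 change was 2.77 ± 0.10, a 6.82-fold rise (adjusted p = 1.02e-09). The groups were far apart, and the +bFGF arrays also stood above the RAW arrays at 1178, 1116.5 and 1160.1 (log2 difference 0.49 ± 0.10, adjusted p = 0.020). The Sprouty proteins block signalling between the receptor and RAF. SPRY1 went from 229, 199.9 and 214 to 1009, 1121 and 973 (log2 change 2.27 ± 0.10, adjusted p = 5.65e-09). SPRY2 went from 937, 861 and 904 to 3998, 3658 and 3668 (log2 change 2.07 ± 0.06, adjusted p = 2.94e-10). Both exceeded RAW, with log2 differences of 0.54 ± 0.10 (adjusted p = 0.012) and 0.51 ± 0.06 (adjusted p = 0.0012).

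The phosphatase DUSP6, which removes the activating phosphates from ERK in the cytoplasm, had the smallest standard error of the 12 largest rises. Its arrays read 995, 1038.5 and 1002 without bFGF and 4677, 4797 and 4548 with it, a log2 change of 2.21 ± 0.05 (adjusted p = 2.75e-11). RAW arrays read 3786, 3799 and 3796, below every +bFGF array (log2 difference 0.30 ± 0.05, adjusted p = 0.0086). DUSP4, its nuclear relative, rose from 1193, 1155 and 1174 to 2539, 2376 and 2527 (log2 change 1.08 ± 0.06, adjusted p = 1.21e-07), and here too all +bFGF arrays were above RAW. Smaller rises were measured for LRIG3, a membrane protein related to the receptor inhibitor LRIG1 (log2 change 0.56 ± 0.12, adjusted p = 0.010), and for ERRFI1, which binds and inhibits EGF receptors (0.30, adjusted p = 0.010). The ERRFI1 call was lost without -bFGF replicate 2 or 3.

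**Figure D3:**
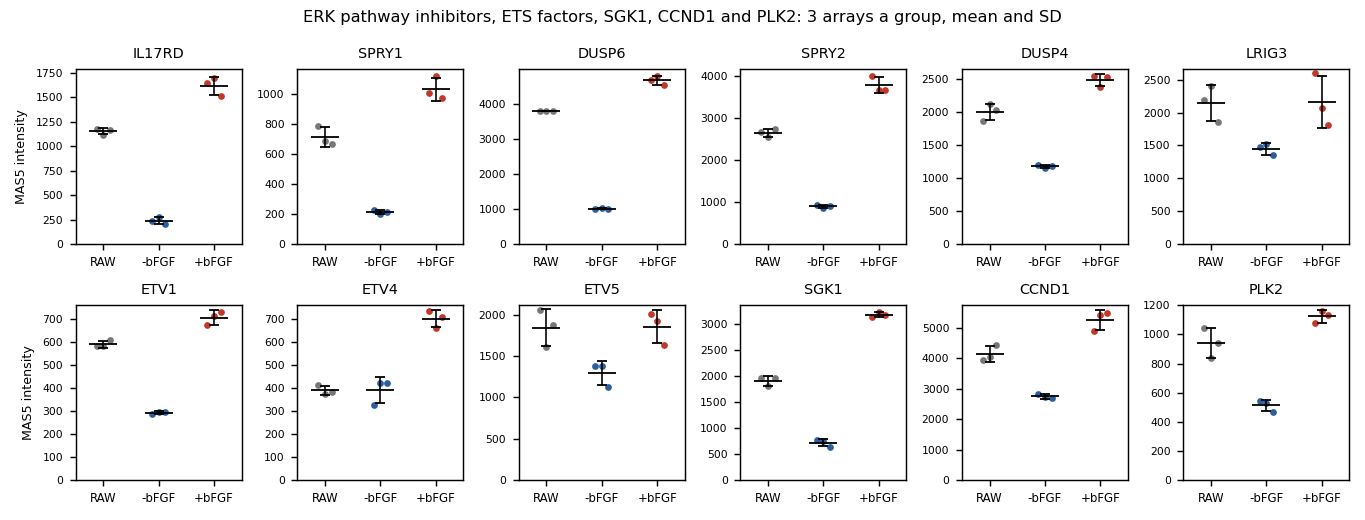
MAS5 intensity on linear axes from 0 in each array of RAW, -bFGF and +bFGF for 6 ERK pathway inhibitors, 3 ETS factors, SGK1, CCND1 and PLK2, with the group mean and SD (n = 3). In each panel all 3 +bFGF arrays lie above all 3 -bFGF arrays, and for IL17RD, SPRY1, DUSP6, SPRY2, DUSP4, ETV1, ETV4, SGK1, CCND1 and PLK2 they also lie above all RAW arrays.

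The cascade on which these inhibitors act had 0 calls, a count too small to set apart from the 4.02% risen and 4.21% fallen of all genes. Of 20 measured genes for adaptors, RAS proteins and MAP kinases, 0 rose and 0 fell by limma, with 2 at an unadjusted p under 0.05 and 0 by the interval criteria of the methods, and changes spanned -0.42 to 0.46 (list median -0.06). MAP2K1 (MEK1) averaged 4258 ± 266 in -bFGF and 4048 ± 109 in +bFGF, and the adaptor GRB2 5234 ± 368 and 4967 ± 339. The brightest receptor probe sets had log2 changes of 0.03 for FGFR1, -0.07 for FGFR2, -0.17 for FGFR3 and 0.08 for FGFR4, none of which passed the test, although 1 of 4 FGFR2 probe sets was called in the downward direction (range -0.37 to 0.03). Among 8 measured ligands and receptors only FGF13 was called (list median -0.12). It belongs to the FGF-homologous factors, which stay inside the cell, and it rose by 0.67 ± 0.06 on the log2 scale (adjusted p = 9.18e-06), with all 3 of its probe sets called. None of 26 genes for heparan sulfate proteoglycans and the enzymes that build their chains passed limma's test or the interval criteria, and 5 had an unadjusted p under 0.05 (list median 0.02).

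Of 17 transcription factors that respond to ERK 4 rose (23.5%) and 2 fell (11.8%), against 4.02% and 4.21% of all genes. Of these calls 3 and 0 were kept in all fits that left out 1 array. The 3 members of the PEA3 family of ETS factors, mediators of FGF responses in vertebrate embryos, all rose. ETV1 had 285, 296 and 296 in -bFGF and 671, 713 and 731 in +bFGF (log2 change 1.27 ± 0.08, adjusted p = 3.45e-07). ETV4 differed in pattern, with RAW at 413, 375 and 381, -bFGF at 325, 423 and 421 and +bFGF at 733, 661 and 709. Its RAW and -bFGF arrays overlapped, and only the +bFGF arrays were high, by 0.86 ± 0.11 over -bFGF (adjusted p = 2.68e-04) and 0.85 ± 0.11 over RAW (adjusted p = 0.0018). ETV5 rose by 0.52 ± 0.11 (adjusted p = 0.0091), its 4 probe sets spanning 0.24 to 0.54. In the other direction MYC fell from 143 ± 19.4 to 75.9 ± 1.57 (log2 change -0.90 ± 0.20, adjusted p = 0.012, and 0.0751 without -bFGF replicate 3), and NR4A2, an orphan nuclear receptor, fell by 0.67 (adjusted p = 0.011, and 0.0557 without -bFGF replicate 1). Of 10 genes of the MYC network, MYC and MXI1 were the called members and both fell, and neither call held in all fits that left out 1 array (list median -0.009). The MXI1 call was lost in 5 of the 9 fits that left out 1 array, with an adjusted p of 0.0975 without -bFGF replicate 3.

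Among other growth factors and receptor kinases 4 rose (13.3%) and 5 fell (16.7%) of 30, against 4.02% and 4.21% of all genes. The list median was 0.02. PDGFA, a ligand of PDGF receptors, had 2253, 1967 and 2391 in -bFGF and 634, 585 and 538 in +bFGF, a fall of 1.91 on the log2 scale (adjusted p = 1.33e-08). The RAW arrays at 744, 807 and 736 lay far below -bFGF and above +bFGF (log2 difference -0.38 ± 0.09, adjusted p = 0.036). IGFBP2, which binds insulin-like growth factors, fell by 1.04 (adjusted p = 0.0042), from 372, 329 and 334 to 183, 159 and 162. The neuregulin receptor ERBB4 fell from 807, 961 and 825 to 547, 503 and 493 (log2 change -0.75 ± 0.09, adjusted p = 1.90e-04). GFRA1, the GDNF co-receptor, averaged 5041 ± 616 without and 3273 ± 374 with bFGF (log2 change -0.62 ± 0.11, adjusted p = 0.0034). The rise that held in all leave-one-array-out fits was that of ROR2, a Wnt5a receptor kinase (0.79 ± 0.14, adjusted p = 0.0030). IGFBP7 rose by 0.37 (adjusted p = 0.010, and 0.0619 without -bFGF replicate 2). IGF2R fell by 0.28 (adjusted p = 0.018), a call lost without -bFGF replicate 2, -bFGF replicate 3 or +bFGF replicate 3 (adjusted p of up to 0.092).

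SGK1, a kinase related to AKT whose transcript is induced by growth factors and hormones, stood out among the genes of PI3K, AKT and TOR signalling. Its intensities were 763, 749.8 and 643.5 in -bFGF and 3142.5, 3238 and 3185 in +bFGF (log2 change 2.15 ± 0.07, adjusted p = 5.39e-10). The +bFGF arrays were above RAW at 1965.5, 1804 and 1968.5 by 0.74 ± 0.07 (adjusted p = 2.82e-04). TSC1, a negative regulator of TOR, rose by 0.39 (adjusted p = 7.19e-04), and of 25 measured members 2 rose and 1 fell, with a median of -0.02.

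Genes of the activin, nodal, BMP and TGF-beta pathways were called in both directions, 7 risen (14.6%) and 4 fallen (8.33%) of 48. The shares over all genes were 4.02% and 4.21%. Of the calls in the list 5 and 3 were kept in all leave-one-array-out fits (list median -0.02). On the ligand-binding side TMEFF2, a membrane protein with follistatin domains, rose from 1023, 1084 and 1008 to 3664, 3277 and 2824.5 (log2 change 1.64 ± 0.08, adjusted p = 3.52e-08). CFC1, a co-receptor for nodal, rose from 4082, 3835 and 3808 to 5949.8, 6524 and 6589 (log2 change 0.70 ± 0.06, adjusted p = 2.30e-06). The secreted antagonist FST moved the other way, from 428, 379 and 439 to 145, 154 and 182 (log2 change -1.38 ± 0.13, adjusted p = 9.18e-06). The FST level in +bFGF was also below RAW (log2 difference -0.80 ± 0.13, adjusted p = 0.0048), and its 2 probe sets fell by 1.38 and 1.63. The receptor TGFBR1 had a log2 change of -0.42 ± 0.06 (adjusted p = 7.82e-04) and the ligand BMP7 one of -0.56 ± 0.11 (adjusted p = 0.0079). SMAD2, which carries the activin and nodal signal to the nucleus, rose from 2484, 2632 and 2553 to 4401, 4945 and 5264 (log2 change 0.93 ± 0.07, adjusted p = 9.98e-07), and the +bFGF arrays exceeded RAW by 0.35 ± 0.07 (adjusted p = 0.015). Among inhibitors within the pathway SMAD6 rose by 0.59 (adjusted p = 0.0066) and the pseudoreceptor BAMBI by 0.33 (adjusted p = 0.010, and 0.0608 without -bFGF replicate 2). SERPINE2, a secreted protease inhibitor, rose by 0.54 (adjusted p = 1.31e-05).

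In the Wnt list 6 members rose and 6 fell of 52 (11.5% each), against 4.02% and 4.21% of all genes. Of these calls 4 and 2 held whichever array was left out (list median -0.0014). The receptor FZD8 had the largest change, from 543, 579 and 588 to 2159, 1675 and 1798 (log2 change 1.71 ± 0.09, adjusted p = 4.86e-08). Its -bFGF arrays were low and the +bFGF arrays overlapped RAW. The ligand WNT5A rose by 0.90 (adjusted p = 0.0059), in 1 of its 2 probe sets, and 2 secreted inhibitors rose with it. SFRP1, which binds Wnts, went from 270.5, 338 and 306 to 512, 554 and 445.5 (log2 change 0.73 ± 0.12), still below the RAW arrays at 774, 734 and 904 (adjusted p = 0.0086). NOTUM, which removes the lipid of Wnts, rose by 0.60 (adjusted p = 3.07e-04). The intracellular inhibitor NKD1 fell by 0.56 (adjusted p = 0.0049) and the beta-catenin cofactor BCL9 by 0.51 (adjusted p = 7.84e-04), although the 3 BCL9 probe sets spanned -0.51 to -0.21. Notch and Hedgehog genes had 0 rises and 3 falls (9.38%) of 32, against 4.02% and 4.21% of all genes (list median -0.03). The fall of MAML2 was lost in 8 of the 9 fits that left out 1 array, and the other 2 falls were kept in all of them. The Notch ligand DLL4 had 322, 369.9 and 508 in -bFGF and 223, 228 and 131 in +bFGF (log2 change -1.06 ± 0.22, adjusted p = 0.0087). HES5, a direct target of Notch in other vertebrates, had 109.7, 118 and 87.5 and 42.2, 48.2 and 35.5 (log2 change -1.33 ± 0.23, adjusted p = 0.0031), with its +bFGF arrays close to the background, and its second probe set changed by -0.74 without a call. RAW arrays of HES5 read 122, 183.5 and 156, so its +bFGF level was the lowest of the 3 groups (log2 difference from RAW -1.87 ± 0.23, adjusted p = 0.0013).

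**Figure D4:**
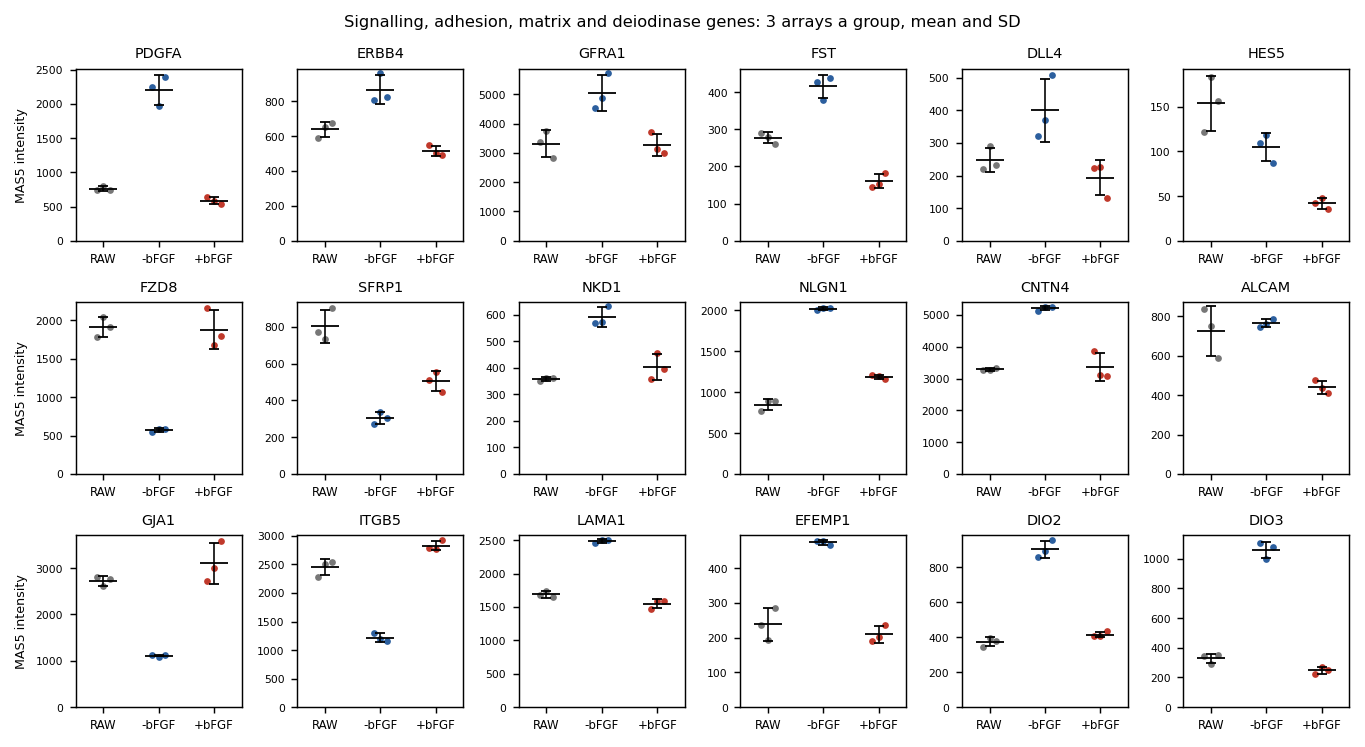
MAS5 intensity on linear axes from 0 in each array of RAW, -bFGF and +bFGF for 18 genes of signalling, adhesion, matrix and thyroid hormone metabolism, with the group mean and SD (n = 3). FZD8, SFRP1, GJA1 and ITGB5 are higher in every +bFGF than in every -bFGF array and the other 14 genes lower; PDGFA, ERBB4, FST, HES5, ALCAM, LAMA1 and DIO3 in +bFGF also lie below all RAW arrays.

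Chemokine and guidance genes included the pair that steers migrating PGCs in chicken. CXCR4, the receptor that PGCs carry, rose from 2172, 2269.6 and 2224 to 3004, 3623 and 3486 (log2 change 0.60 ± 0.08, adjusted p = 2.23e-04). CXCL12, its ligand, rose from 945, 1001 and 1064 to 1508, 1419 and 1465 (log2 change 0.55 ± 0.07, adjusted p = 2.37e-04), in 1 of its 3 probe sets. The CXCR4 arrays of +bFGF overlapped RAW, and those of CXCL12 lay above all RAW arrays without a call (adjusted p = 0.37). Of 44 measured guidance genes 4 rose and 3 fell (list median 0.04). The ephrin receptor EPHA1 had 57.4, 32.4 and 38.7 in -bFGF, 2 arrays of which were below the highest background value, and 145, 125 and 154 in +bFGF (log2 change 1.76 ± 0.23, adjusted p = 2.47e-04). The size of this rise is therefore uncertain, and it ran from 1.05 to 1.99 over the alternatives. EPHA3 rose by 0.70 (adjusted p = 0.0097, and 0.0508 without +bFGF replicate 2), whereas its relative EPHA7 fell by 0.77 (adjusted p = 0.0035). The semaphorin receptor PLXNA4 fell by 0.98 (adjusted p = 0.0029) and the netrin receptor NEO1 by 0.47 (adjusted p = 0.0030).

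In the list of 38 neural adhesion and immunoglobulin superfamily genes 8 fell (21.1%) and 1 rose (2.63%), against 4.21% and 4.02% of all genes. Of the falls 5 kept their call whichever array was left out, and the list median was -0.14, the lowest of the 49 lists. The list is broader than its name, since its falls include the neurofilament NEFM and the receptor CD44, named above as a leukocyte marker. NEFM, a neurofilament subunit, read 740.0, 634 and 687 in -bFGF and 196, 203 and 181 in +bFGF (log2 change -1.83 ± 0.13, adjusted p = 1.05e-06). CHL1, an L1-type cell adhesion molecule, had 209, 198 and 180.3 and 53.8, 103 and 72.3 (log2 change -1.41 ± 0.24, adjusted p = 0.0028). NLGN1, a synaptic adhesion protein, had 2002, 2032 and 2034 in -bFGF and 1208, 1195.5 and 1161 in +bFGF (log2 change -0.77 ± 0.07, adjusted p = 9.35e-06). For NEFM and CHL1 the +bFGF arrays reached the RAW range, but NLGN1 stayed above RAW at 771, 888 and 889 (log2 difference 0.49 ± 0.07, adjusted p = 0.0029). CNTN4, a contactin of neuronal membranes, fell by 0.64 (adjusted p = 1.20e-04), with all 3 probe sets called. ALCAM had 837, 750.1 and 589 in RAW, 746, 762 and 788 in -bFGF and 475, 436 and 410.0 in +bFGF. The first 2 groups overlapped and the +bFGF arrays were lower than both, by 0.80 against -bFGF (adjusted p = 6.54e-04). NEGR1, a neuronal growth regulator, was the member that rose (0.50 ± 0.09, adjusted p = 0.0027).

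Matrix genes had 6 rises (12.2%) and 2 falls (4.08%) of 49, against 4.02% and 4.21% of all genes (list median 0.03). Of these calls 3 and 2 were kept in all fits that left out 1 array. In the test against a 1.2-fold change the rises numbered 2. COL1A2, a chain of collagen I, had 277, 252 and 261.5 in -bFGF and 2118, 1679 and 1798 in +bFGF, a 7.05-fold rise (log2 change 2.82 ± 0.09, adjusted p = 5.39e-10) called in all 5 of its probe sets. The partner chain COL1A1 averaged 185 ± 25.6 and 214 ± 26.8 and did not pass the test (adjusted p = 0.50). The membrane protease MMP15 rose by 0.69 (adjusted p = 1.19e-04), and ADAMTS9, a secreted protease, by 0.43 (adjusted p = 0.0024) in 1 of its 5 probe sets. LAMA1, a laminin chain of early basement membranes, went from 2451, 2510.2 and 2509.5 to 1473, 1585 and 1584 (log2 change -0.69 ± 0.06, adjusted p = 4.86e-06), with 2 of 5 probe sets called. The related chain LAMA5 rose by 0.46 (adjusted p = 0.012, and 0.0598 without -bFGF replicate 3). EFEMP1, a fibulin, fell from 478, 478 and 466 to 191, 201 and 237 (log2 change -1.18 ± 0.14, adjusted p = 1.59e-04).

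Among cell surface and junction genes ITGB5, the beta 5 integrin that pairs with alpha V, rose from 1303, 1187 and 1153 to 2796, 2774 and 2926 (log2 change 1.22 ± 0.07, adjusted p = 6.15e-08), and of 13 integrins 1 rose and 1 fell (list median -0.01). GJA1 (connexin 43), a gap junction subunit, rose from 1126, 1089.5 and 1118 to 2717.5, 3003 and 3588 (log2 change 1.47 ± 0.08, adjusted p = 9.63e-08). In +bFGF the GJA1 arrays overlapped RAW and the ITGB5 arrays lay above all RAW arrays without a call (adjusted p = 0.12). CLDN1, a claudin that read 34969, 32973 and 32570.4 in -bFGF and 39689, 42531 and 40615 in +bFGF, rose by 0.29 (adjusted p = 0.0044), and CLDN11 fell by 0.55 (adjusted p = 0.0020). Junction genes in all had 3 rises and 3 falls of 48, and 2 and 1 of those calls held in all leave-one-array-out fits (list median -0.06). The tetraspanins CD81 and CD82 moved apart, CD81 by 0.69 ± 0.14 (adjusted p = 0.0085) and CD82 by -0.72 ± 0.06 (adjusted p = 5.99e-06), and 1 of 25 members of that list rose and 2 fell (list median -0.06). In the actin list 7 of 83 rose and 3 fell, of which 3 and 2 kept their calls (list median 0.01). RHOB, a small GTPase induced early by growth factors, rose from 598, 496.5 and 528 to 1202, 1092 and 1187 (log2 change 1.10 ± 0.09, adjusted p = 3.67e-06). RND3, an atypical small GTPase of the actin cytoskeleton, fell by 0.35 (adjusted p = 0.0012), and the membrane-actin linker MSN by 0.28 (adjusted p = 0.0087) in a probe set marked as able to cross-hybridise.

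Homeobox and T-box genes had 9 rises (24.3%) and 3 falls (8.11%) of 37, against 4.02% and 4.21% of all genes. Whichever array was left out, 5 of the rises and 1 of the falls kept their call (list median 0.05). The rises numbered 3 to 10 over the alternatives, and 4 in the test against a 1.2-fold change. HESX1, a homeobox repressor of the anterior embryo, went from 116, 164 and 114 to 653, 677 and 693 (log2 change 2.38 ± 0.14, adjusted p = 8.96e-08). Its RAW arrays at 834.5, 911 and 1045 were all higher than +bFGF, without a call (adjusted p = 0.094). TBX6, a T-box factor of the paraxial mesoderm, went from 195.5, 168 and 135 to 442, 409 and 466 (log2 change 1.42 ± 0.16, adjusted p = 7.25e-05), and here +bFGF exceeded RAW by 0.79 ± 0.16 (adjusted p = 0.017). TBXT (brachyury) rose from 123, 113 and 131 to 248, 256 and 254 (log2 change 1.04 ± 0.13, adjusted p = 2.24e-04). PROX1 rose by 0.92 (adjusted p = 0.0041) and OTX2, a homeobox factor of the anterior epiblast and brain, by 0.81 (adjusted p = 1.56e-05). The T-box gene EOMES fell, from 1226, 1259.6 and 1116 to 833, 749 and 659 (log2 change -0.69 ± 0.12, adjusted p = 0.0036). Thus 2 T-box genes rose and 1 fell between the same arrays.

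In the list of SOX, KLF, GATA and FOX factors 1 of 34 rose and 3 fell (list median -0.06). FOXD3, a repressor of pluripotent and neural crest cells, had 23.7, 71.7 and 55.3 in -bFGF, 1 array of which was under the background, and 518.5, 339 and 431 in +bFGF (log2 change 3.22 ± 0.31, adjusted p = 1.45e-05). SOX7, a factor of endoderm and vessels, fell from 854, 722 and 669.8 to 329.7, 415 and 337 (log2 change -1.05 ± 0.12, adjusted p = 7.18e-05). Germ cell and stem cell regulators had 4 rises (8.70%) and 3 falls (6.52%) of 46, against 4.02% and 4.21% of all genes (list median 0.08). Whichever array was left out, 2 of the rises and 3 of the falls kept their call. The rises of SALL4 and TDRD1 were lost in 4 and 9 of the 9 fits that left out 1 array. LIN28A, an RNA-binding protein that blocks let-7 maturation, rose by 0.80 (adjusted p = 0.0023) and ZIC2, a zinc finger factor, by 0.55 (adjusted p = 2.35e-05) in 1 of its 2 probe sets. The 3 falls were those of SALL3, CPEB1 and ELAVL2. SALL3 had 658, 694 and 701 in RAW, 611, 760.2 and 669 in -bFGF and 511.5, 478 and 374 in +bFGF (log2 change -0.59 ± 0.12, adjusted p = 0.0075), so its +bFGF arrays were low against both. The RNA-binding proteins CPEB1 and ELAVL2 fell by 0.32 and 0.26, the CPEB1 probe sets spanning -0.32 to 0.02. Of 122 chromatin genes 3 rose and 3 fell (list median -0.02). The call that held whichever array was left out was that of SMARCA2, an ATPase of the SWI/SNF remodelling complex, which fell from 1426.5, 1614 and 1651 to 892, 805 and 757.5 (log2 change -0.93 ± 0.09, adjusted p = 1.56e-05). The remaining 5 chromatin calls were each lost in at least 2 of the 9 fits that left out 1 array.

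**Figure D5:**
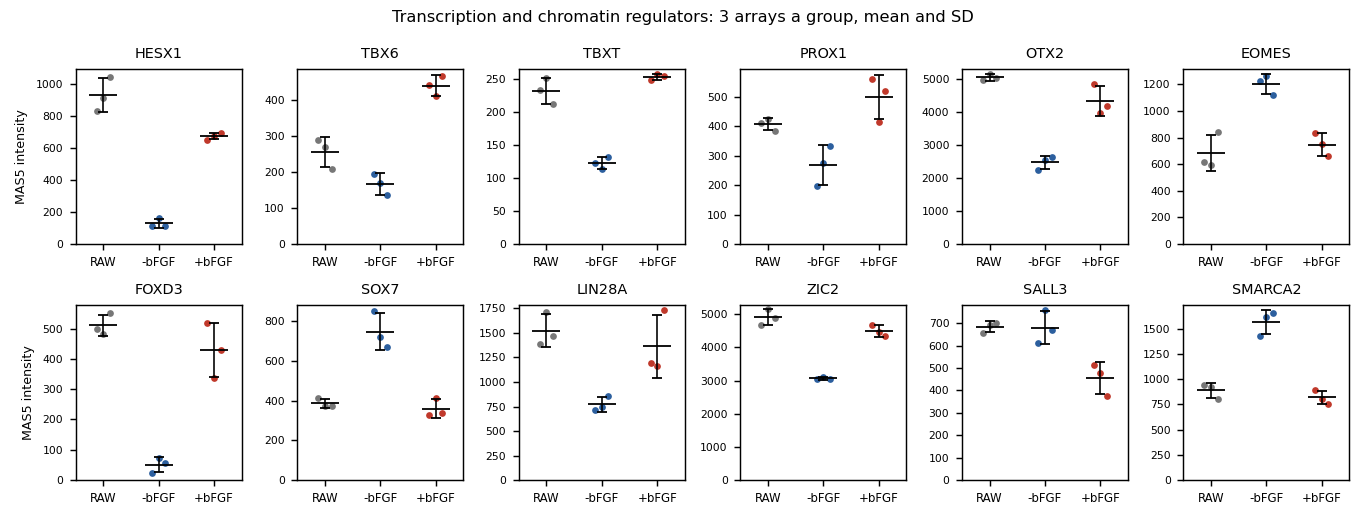
MAS5 intensity on linear axes from 0 in each array of RAW, -bFGF and +bFGF for 12 transcription, RNA-binding and chromatin regulators, with the group mean and SD (n = 3). All panels show +bFGF arrays apart from -bFGF arrays, 8 of them higher and 4 (EOMES, SOX7, SALL3 and SMARCA2) lower; in +bFGF, TBX6 lies above all of its RAW arrays and HESX1, OTX2, ZIC2 and SALL3 below.

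The thyroid hormone deiodinases DIO3 and DIO2 fell on replacement. DIO3, which inactivates the hormone, went from 1104, 998 and 1076 to 222, 272 and 248 (log2 change -2.10 ± 0.11, adjusted p = 3.52e-08). DIO2, which activates it, went from 863, 892 and 955 to 405.5, 407 and 433 (log2 change -1.12 ± 0.09, adjusted p = 2.37e-06). The +bFGF arrays of DIO3 lay below all RAW arrays and those of DIO2 above all RAW arrays, without a call in either case (adjusted p = 0.065 and 0.39). SLC16A10, a transporter of aromatic amino acids and thyroid hormone, rose by 0.48 (adjusted p = 0.0013) and remained below RAW (log2 difference -0.65 ± 0.07, adjusted p = 7.84e-04). CYP26A1, which degrades retinoic acid, rose by 0.49 (adjusted p = 0.0029), whereas CYP26B1, with the same activity, had a log2 change of -0.59 whose call was lost without -bFGF replicate 2 or 3. The whole list had 3 rises and 5 falls of 36 (list median -0.05).

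Of 36 genes of the hypoxia response 3 rose (8.33%) and 4 fell (11.1%), against 4.02% and 4.21% of all genes (list median -0.02). Of these calls 2 and 2 were kept in all fits that left out 1 array. The rise of PGK2, matched in place of PGK1, was lost in 7 of these 9 fits and the fall of MXI1 in 5. EPAS1 (HIF-2 alpha) fell from 802, 702 and 814 to 366, 319 and 321 (log2 change -1.203 ± 0.118, adjusted p = 1.97e-05), although its dimmer probe set changed by -0.50 and was not called. The vasodilator peptide gene ADM fell by 0.56 (adjusted p = 0.0069). The rises of the list included a pair of glucose transporters. SLC2A14, an entry that also carries the name SLC2A3 (GLUT3), went from 6788, 6323 and 6018 to 11001, 12382.5 and 12256 (log2 change 0.90 ± 0.07, adjusted p = 1.41e-06). SLC2A1 (GLUT1) went from 1613, 1619 and 1595 to 2332, 2197 and 2172 (log2 change 0.47 ± 0.06, adjusted p = 1.16e-04) and stayed below RAW at 2938, 2956 and 3069.6 (adjusted p = 0.0019). Circadian clock genes had 0 rises and 2 falls of 17 (list median 0.03), and neither fall was kept in all fits that left out 1 array. The repressor BHLHE41, which is in both lists, fell by 0.64 (adjusted p = 0.010, and 0.0542 without -bFGF replicate 3).

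Among cell cycle genes the largest called changes were those of CCND1 and PLK2. Of 41 cyclins, CDKs and inhibitors 3 rose, all of them whichever array was left out, and 2 fell (list median -0.01). Of all genes 4.02% rose and 4.21% fell. With so few calls, no difference from these shares is read for this list or those of replication, mitosis, repair and apoptosis. CCND1 (cyclin D1), which drives entry into S phase and is induced by ERK, rose from 2836, 2720.5 and 2677 to 4876, 5397 and 5490.1 (log2 change 0.94 ± 0.06, adjusted p = 5.55e-07), above RAW by 0.34 ± 0.06 (adjusted p = 0.013). CCND2 and CCNA2, a cyclin of S phase, each rose by 0.30 (adjusted p = 0.0016 and 0.0028), and CCNG1, a p53 target, fell by 0.30 (adjusted p = 0.0051). DNA replication genes had 1 rise and 3 falls of 51, with DBF4, the activator of the CDC7 kinase, at -0.36 ± 0.06 (adjusted p = 0.0036), with a list median of -0.01. Of 63 mitosis and spindle genes 1 rose and 1 fell (list median -0.05). The rise was that of PLK2, an early-response polo kinase, from 542, 528 and 468 to 1078, 1161 and 1131 (log2 change 1.13 ± 0.09, adjusted p = 2.99e-06). DNA repair genes had 2 rises and 3 falls of 65, with BARD1, the partner of BRCA1, at 0.52 ± 0.06 (adjusted p = 6.62e-05) and the mismatch protein MSH6 at 0.35 ± 0.07 (adjusted p = 0.0076), with a list median of -0.04. In the apoptosis list 2 rose and 3 fell of 41 (list median -0.01). BMF, a pro-apoptotic BCL2 family member, fell from 652, 512 and 588 to 349, 349 and 385 (log2 change -0.69 ± 0.11, adjusted p = 0.0011). APAF1, which activates caspase 9, fell by 0.57 (adjusted p = 0.0051). Both rises in that list were lost when 1 array was left out.

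Among genes of growth and protein production, ribosome biogenesis had 1 rise and 0 falls of 66 (list median 0.05), translation factors 1 and 0 of 46 (list median 0.04), aminoacyl-tRNA synthetases 1 and 0 of 29 (list median 0.04), and amino acid transporters 0 and 0 of 16 (list median 0.10) by limma and by the interval criteria, with 3 at an unadjusted p under 0.05. Of all genes 4.02% rose and 4.21% fell, and with so few calls no difference from these shares is read. The ribosome biogenesis gene was the nucleolar helicase DDX21, at 6714 ± 239 in -bFGF and 8323 ± 203 in +bFGF (log2 change 0.31 ± 0.05, adjusted p = 0.0013). RAW averaged 6751 ± 38.9, so that the +bFGF level was the highest of the groups (log2 difference from RAW 0.30 ± 0.05, adjusted p = 0.0055). Enzymes of serine, one-carbon and sulfur amino acid metabolism had 5 rises and 0 falls of 32, 3 of them kept whichever array was left out (list median 0.05). MTHFD2, a mitochondrial folate enzyme, rose from 1350.0, 1520.3 and 1313 to 1886, 2107 and 1937 (log2 change 0.50 ± 0.08, adjusted p = 0.0011). PSAT1, of serine synthesis, rose by 0.45 (adjusted p = 6.84e-04) and CTH, which makes cysteine, by 0.36 (adjusted p = 0.0061). ATF4, a regulator of such enzymes in mammals, rose by 0.31 (adjusted p = 0.0015), within an ER stress list that had 3 rises and 0 falls of 40 (list median 0.0074). In nucleotide metabolism (1 risen, 3 fallen of 41) UMPS, which completes pyrimidine synthesis, rose from 4508, 4582 and 4235.5 to 8621, 8419 and 8085 (log2 change 0.92 ± 0.05, adjusted p = 1.45e-07), and the 3 falls were each lost in at least 7 of the 9 fits that left out 1 array (list median 0.05).

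Of 55 heat shock and chaperone genes 1 rose (1.82%) and 4 fell (7.27%), against 4.02% and 4.21% of all genes (list median -0.0017). Of these calls 0 and 3 were kept in all fits that left out 1 array. The rise of CDC37 and the fall of CCT3 were each lost in 7 of these 9 fits. HSPB9, an entry that also carries the name HSP25, fell from 4124, 3883 and 3889.6 to 2807, 2775 and 2825 (log2 change -0.50 ± 0.05, adjusted p = 3.71e-05), with BAG2 at -0.38 and HSPA2, also named HSP70, at -0.28. Proteasome genes had 3 rises of 38, 0 of which held in all fits that left out 1 array (list median 0.03). Autophagy and lysosome genes had 1 rise and 3 falls of 65, with the conjugation protein ATG5 at -0.34 (adjusted p = 0.0027) and the cholesterol transporter NPC1 at -0.33 (adjusted p = 0.0066), with a list median of -0.06.

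Of 45 genes of phospholipid synthesis, lipid phosphatases and lysophospholipid receptors 4 rose, all kept whichever array was left out, and 2 fell (list median -0.00066). PLPP1, a phosphatase of phosphatidic and lysophosphatidic acid, read 2237, 2337 and 2382 in -bFGF and 8441, 7789 and 7882 in +bFGF (log2 change 1.79 ± 0.07, adjusted p = 1.10e-09), and all +bFGF arrays exceeded RAW (log2 difference 0.48 ± 0.07, adjusted p = 0.0024). AGK, a kinase that produces both lipids, rose from 2784, 2774 and 2805 to 3706, 4198 and 4152 (log2 change 0.53 ± 0.06, adjusted p = 1.13e-04), in all 3 of its probe sets. The sphingosine 1-phosphate receptor S1PR3 rose by 0.88 (adjusted p = 6.98e-05). PISD, which makes phosphatidylethanolamine, rose by 0.51 (adjusted p = 0.0020), but its dimmer probe set changed by -0.30 without a call. GPAM, an acyltransferase that makes lysophosphatidic acid, fell by 0.27 (adjusted p = 0.022), a call lost without -bFGF replicate 2, -bFGF replicate 3 or +bFGF replicate 1 (adjusted p of up to 0.0851). The other fall, that of the receptor S1PR1 (log2 change -0.81, adjusted p = 0.046), was lost on leaving out any of 6 arrays, namely RAW replicate 2, +bFGF replicate 1 or 3 and each -bFGF array. Of 42 fatty acid genes 1 rose and 3 fell, with the peroxisomal oxidase ACOX2 at 1.23 ± 0.23 (adjusted p = 0.0044) and ME1, a source of NADPH, at -0.59 ± 0.10 (adjusted p = 0.0030), with a list median of -0.04. None of 81 genes of oxidative phosphorylation and the citrate cycle (list median 0.03) passed limma's test or the interval criteria, 9 having an unadjusted p under 0.05, and heme and iron genes had 1 fall of 32 (list median -0.04), that of ISCA1, an iron-sulfur cluster assembly protein (-0.29 ± 0.05, adjusted p = 0.0034).

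Of 54 glycosyltransferases of the cell surface 1 rose (1.85%) and 5 fell (9.26%), against 4.02% and 4.21% of all genes, and the falls numbered 2 to 7 over the alternatives. The list median of -0.02 was that of all genes. ST3GAL5, which makes the ganglioside GM3, went from 3777, 3763.5 and 3961 to 1841, 1878 and 2319.7 (log2 change -0.94 ± 0.08, adjusted p = 5.25e-06), in all 4 probe sets, and ended below RAW at 2895, 3146 and 3133 (log2 difference -0.61 ± 0.08, adjusted p = 0.0019). GCNT1, which branches mucin-type glycans, had 292, 330.3 and 310.4 in RAW, 322, 337 and 318.5 in -bFGF and 172, 219 and 167 in +bFGF (log2 change -0.82 ± 0.13, adjusted p = 0.0013). As for ALCAM and SALL3, the first 2 groups overlapped and +bFGF was lower. B3GNT2, which extends lactosamine chains, fell by 0.34 (adjusted p = 0.0011).

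Ion handling held one of the 12 largest rises. CA2 (carbonic anhydrase 2), which interconverts carbon dioxide and bicarbonate, read 42.8, 66.0 and 64.8 in -bFGF and 531, 516 and 574 in +bFGF, a 9.51-fold rise (log2 change 3.25 ± 0.16, adjusted p = 2.16e-08), and the RAW arrays read 906, 749.5 and 838. The lowest -bFGF array was near the background, and the rise ran from 2.46 to 3.36 over the alternatives. Every +bFGF array was below every RAW array, with no call (adjusted p = 0.055). The plasma membrane calcium pump ATP2B1 rose by 0.40 (adjusted p = 2.13e-04), and CD38, which makes the calcium messenger cyclic ADP-ribose, fell from 967, 911 and 892 to 557, 605 and 532 (log2 change -0.71 ± 0.08, adjusted p = 7.66e-05). That list had 3 rises and 4 falls of 28 (list median -0.04), of which 2 and 2 were kept in all fits that left out 1 array. Of 29 channel genes 4 rose (13.8%) and 1 fell (3.45%), against 4.02% and 4.21% of all genes (list median 0.02). Of the rises 3, and also the fall, were of potassium channel genes or their partners, whose share of the list was not counted. KCNK5, a background potassium channel sensitive to pH, rose from 382, 339 and 451 to 857, 877.5 and 1135 (log2 change 1.29 ± 0.14, adjusted p = 4.17e-05). KCNG1, a modifier of voltage-gated channels, rose by 0.86 (adjusted p = 5.80e-06) and KCNIP1, a calcium-binding channel partner, by 0.80 (adjusted p = 0.0012). The subunit KCNAB1 fell by 0.89 (adjusted p = 0.0086, and 0.0503 without -bFGF replicate 3).

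Of 59 RGS, G protein and cyclic nucleotide genes 3 rose and 4 fell (list median -0.04). The phosphodiesterases moved apart, PDE10A by 0.70 ± 0.11 (adjusted p = 0.0017) and PDE3A by -0.95 ± 0.17 (adjusted p = 0.0037), and the G protein subunit GNG10 rose by 0.38 (adjusted p = 3.97e-04). Interferon and innate immunity genes had 1 rise and 4 falls of 50, of which the fall of STAT3, the transcription factor of LIF and interleukin 6 receptors, held whichever array was left out (-0.36 ± 0.07, adjusted p = 0.0079), with a list median of -0.06. The 4 STAT3 probe sets spanned -0.36 to 0.08, and 1 was called.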

How the data were processed

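The values were the deposited MAS5 intensities of the series matrix, a linear scale on which the authors' processing had already summarised each probe set and scaled each array (the submitters' processing notes name MAS5). The study's methods instead used dChip with interval criteria, which were applied here as an alternative. Intensities were taken to log2 without an offset. Of 38535 probe sets, 96 controls and those below the median mean log2 level over the 9 arrays were left out, which leaves 19220. All 9 arrays were fitted at once with limma 3.58.1 in R 4.3.3, with 1 mean per group and an intensity trend, and p-values were adjusted by Benjamini-Hochberg over all tested probe sets. The test was checked on simulated data with noise drawn independently for each array, so the check does not cover technical effects shared between arrays. Each gene was read from its brightest probe set. The number of arrays limits the precision. Named genes were the 12 largest rises and falls among called genes whose -bFGF and +bFGF arrays did not overlap, and up to 5 called members in each direction of 49 lists (LRIG3, ERRFI1, BAMBI, CNTN4, OTX2, GRB2, MAP2K1, the FGF receptors, COL1A1, EGFL7 and the germ cell markers fall outside this rule and were chosen after their values were seen). The members and lists were chosen with earlier results of these data known. Promoter sequences were not used here.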

Additional observations from a re-analysis of the deposited data

How the results depend on the processing

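The counts of 647 risen and 657 fallen probe sets moved with the strictness of the test. When the null was a 1.2-fold change, 178 probe sets passed upward and 104 downward. The falls numbered 1099 with a threshold of 0.1 on the adjusted p and 426 among the 9610 probe sets above the 75th percentile of level. Leaving out 1 array gave 433 to 633 rises and 332 to 652 falls, the falls numbering 332 without -bFGF replicate 2, 380 without -bFGF replicate 3 and 435 without +bFGF replicate 3. Of 226 named calls, 74 held under every alternative, 91 were lost on leaving out some array (at most 72, without -bFGF replicate 3) and none turned its direction. The test against a 1.2-fold change lost 152 of them, among which were CLDN1, LRIG3, ERRFI1, BAMBI, DLL4, EOMES, MTHFD2, SALL3, SFRP1 and SLC2A1. The interval criteria lost 76 named calls, a fit without an intensity trend 67, no filter on low values 50, the 6 arrays alone 35, centring 30 and quantile normalization 20. Lists without a call gained at most 1 risen or fallen member under any alternative. The equal replicate numbers were not shown to pair the samples, since their deviations from the group means correlated at -0.213, -0.0506 and -0.0306 and no array correlated best with its own number. The fit with a replicate block gave 550 rises and 495 falls, and 39 of the named calls were lost in it.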
